A study of Homo sapiens with 6 samples.

Results

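Keratins of basal, luminal and stress-associated type were examined in DU145, an established human prostate cancer cell line. The members were the rows of the expression table whose symbol was KRT5, KRT6A, KRT7, KRT8, KRT14, KRT15, KRT17, KRT18, KRT19 or KRT80, which makes 10 of the 19727 genes. The lentivirus-NC group held 3 libraries from cells given the control vector, whose genotype label reads normal, and the lentivirus-circCSPP1 group held 3 libraries from cells made to overexpress circCSPP1, a circular RNA derived from the CSPP1 gene. All 6 libraries therefore came from the same line and from cells that carried a lentivirus, which the study describes as stable lines without saying that they were single clones. Per the study's methods the lentiviral cells were selected with puromycin to make these lines. No label says whether the replicates were separate cultures, so the p-values measure only the spread between these libraries, which may be technical.

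Keratins are the intermediate filament proteins of epithelial cells. A filament is built from pairs of 1 type I and 1 type II chain, so a cell normally makes members of both types. KRT5 (type II) with KRT14 (type I) is the pair of basal cells in the prostate, and KRT15 is another type I keratin of basal layers. KRT8 (type II) with KRT18 (type I) is the pair of luminal and other simple epithelia, where KRT7 (type II) and KRT19 (type I) are found as well. KRT6A and KRT17 are type II and type I keratins that rise in wounded or activated epidermis, and KRT80 is a type II keratin found in many epithelia, often near desmosomes. Loss of KRT5 and KRT14 and retention of KRT8 and KRT18 are used in pathology to tell prostate carcinoma from benign glands.

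DU145 cells in both groups had a simple-epithelial keratin profile in which KRT7, KRT8, KRT18 and KRT19 were abundant and KRT5, KRT14, KRT6A and KRT17 were close to 0. With lentivirus-circCSPP1, KRT8 was 2.67-fold lower in mean level, and KRT18, KRT19 and KRT15 were also lower, while KRT7 and KRT80 were higher. FPKM means fragments scaled to transcript length and to the size of the library. All 6 members with a mean of at least 1 FPKM passed the test between groups, 4 lower and 2 higher. The share over all tested genes was 11.4%. The calls of KRT7, KRT15 and KRT19 were lost in some fits with 1 library left out. The plot of keratin levels shows every library.

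**Figure D1:**
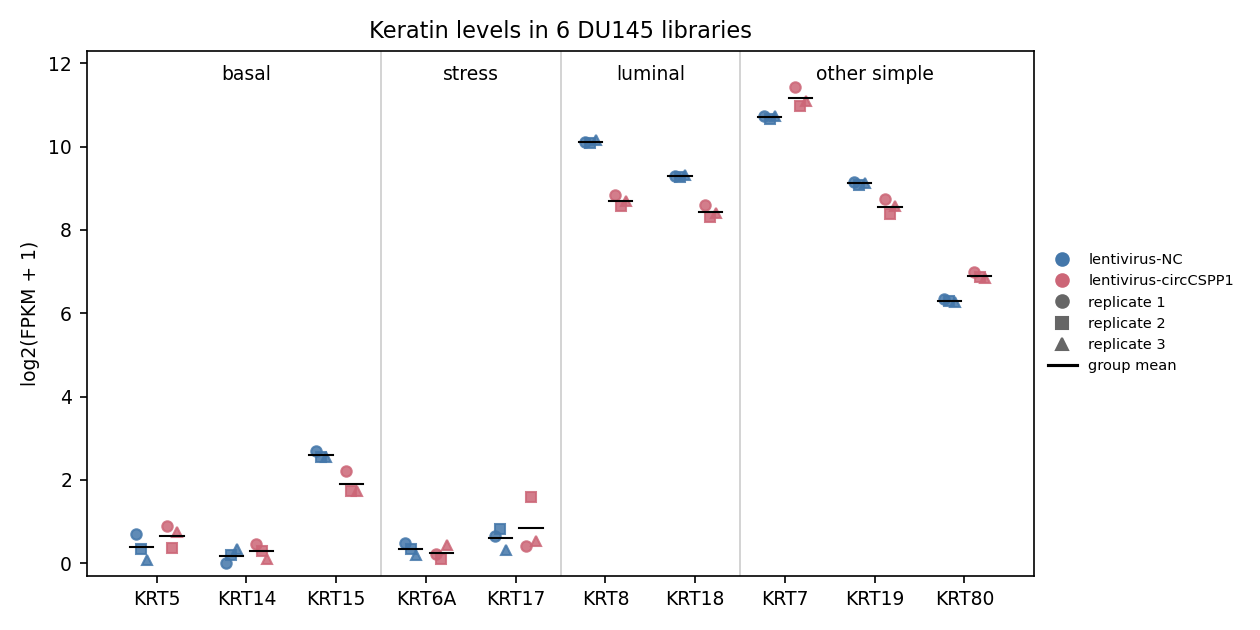
Levels of the 10 keratins as log2(FPKM + 1) in each library, with blue for lentivirus-NC, red for lentivirus-circCSPP1, a symbol for each replicate number and a black line for the group mean of 3 libraries. KRT5, KRT14, KRT6A and KRT17 lie near the bottom and overlap between groups, whereas KRT8, KRT18, KRT19, KRT15, KRT7 and KRT80 do not overlap.

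The depth behind these values, read from the step between low FPKM values, was 28800000 to 36700000 fragments for lentivirus-NC and 28800000 to 34800000 for lentivirus-circCSPP1. The CSPP1 gene itself had 9.11, 10.08 and 9.44 FPKM in lentivirus-NC and 14.47, 22.76 and 21.36 FPKM in lentivirus-circCSPP1, but a gene-level value does not separate the circular RNA from the linear transcript. Of the defining markers of other cells, PTPRC (leukocytes), PECAM1 (endothelium), DCN (fibroblasts) and CHGA (neuroendocrine cells) did not exceed 0.16 FPKM in any library, and PDGFRB (fibroblasts) reached 0.71 FPKM. COL1A1, also listed for fibroblasts, had 2.6 to 4.06 FPKM in lentivirus-NC and 0.99 to 1.36 FPKM in lentivirus-circCSPP1. SYP, also listed for neuroendocrine cells and named after its values were seen, had 1.06 to 1.81 FPKM. CD68 and CD14, listed for macrophages, were present at 35.8 to 50.4 FPKM and 0.8 to 2.42 FPKM. KRT8, KRT18 and EPCAM, which define epithelial cells, were present, while KLK3, a marker of differentiated luminal cells, was listed at 0 in all 6 libraries, and TP63, which defines basal cells, reached 0.05 FPKM at most. The lentivirus-circCSPP1 libraries departed from each other in a way that followed the GC content of the transcripts. Over 12305 genes, Spearman's rho between GC content and a library's log2 departure from the other two of its group was 0.78 in replicate 1, -0.73 in replicate 2 and -0.48 in replicate 3, against -0.0565 to 0.0979 in lentivirus-NC, given as a description. All 6 tested members, with transcripts of 53.4% to 62.9% GC against a median of 49.3% over tested genes, were higher in lentivirus-circCSPP1 replicate 1 than the mean of the other two, by 0.136 to 0.47 on the log2 scale. In replicate 2 all 6 were lower than the other two, by differences from -0.295 to -0.062.

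Differences were tested with limma on log2(FPKM + 1) over the 12322 genes whose mean reached 1 FPKM, and adjusted p-values below are from this fit with Benjamini-Hochberg adjustment over all of them. On this scale differences of low genes come out too small. Among all tested genes 11.4% passed an adjusted p of 0.05, with 4.69% higher and 6.66% lower in lentivirus-circCSPP1, and 36.4% had groups that did not overlap. At an unadjusted p under 0.05 the share was 28.2%, with 12.2% higher and 16% lower, against which the unadjusted counts given further on are to be read. With no filter on low values 5.89% of genes passed an adjusted p of 0.05. That share was 28.6% after the correction for GC content and length and 28.5% without lentivirus-circCSPP1 replicate 1. Among the keratins, 6 of 6 tested members passed and 6 of 6 did not overlap. Their median difference was -0.63 on the log2 scale, beside -0.03 over all tested genes. The other 4 members were below the filter and were not tested, so these counts do not describe all 10. In a bulk sample, fewer cells that make a keratin and less of its RNA per cell cannot be told apart.

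KRT8, the luminal type II keratin, was the member with the largest difference. With replicates 1, 2 and 3 in that order, as in all lists of values below, it measured 1112, 1085 and 1138 FPKM in lentivirus-NC. In lentivirus-circCSPP1 it measured 456, 379.9 and 412 FPKM. The highest lentivirus-circCSPP1 library lay far below the lowest control. The means were 1112 ± 26.4 and 416 ± 38.3 FPKM (SD, n = 3), and the log2 difference was -1.42 (standard error 0.081, adjusted p = 0.00056). By rank within the library, KRT8 stood at place 43 to 50 among the most abundant genes in lentivirus-NC and at 157 to 187 in lentivirus-circCSPP1.

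KRT18, its type I partner, was lower as well. It measured 622, 612 and 634 FPKM in the lentivirus-NC libraries and 384, 319 and 339 FPKM in the lentivirus-circCSPP1 libraries. The groups did not overlap, and the coefficient of variation was 1.8% in the control libraries, against 9.73% with lentivirus-circCSPP1. The means were 623 ± 11.2 and 347 ± 33.8 FPKM (SD, n = 3), a log2 difference of -0.85 (standard error 0.084, adjusted p = 0.0027). The difference of KRT18 was smaller than that of KRT8, which is seen in their ratio below. KRT8 and KRT18 kept an adjusted p under 0.05 under all 17 alternative settings, each fit without 1 library included.

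On GRCh38 (GENCODE release 29) KRT8 lies at chr12:52897187-52949954 on the minus strand and KRT18 at chr12:52948871-52952901 on the plus strand. Their annotated exons share 525 bases on opposite strands, which is 7.63% of the exonic bases of KRT8 and 16.3% of those of KRT18. Whether the counting used strand is not given in the sources used here, so reads from that stretch cannot be told apart between these genes. RefSeq promoter entries (GRCh38.p14) matched KRT5 and KRT8 among the members. The entry for KRT8, the member with the largest difference, is shown for the 250 bases before its start, at chr12:52926470-52926719 on the minus strand. No annotated exon overlaps this window, which falls in an intron of the longer KRT8 transcripts, and which of the annotated KRT8 starts the cells used was not measured.

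KRT8 promoter: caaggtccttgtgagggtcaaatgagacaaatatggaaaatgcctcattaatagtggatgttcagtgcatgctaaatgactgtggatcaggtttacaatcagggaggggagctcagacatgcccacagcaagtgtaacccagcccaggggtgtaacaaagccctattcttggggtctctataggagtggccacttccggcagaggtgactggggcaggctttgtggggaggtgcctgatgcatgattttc

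The window was searched on both strands for 3 motifs. These were TATAAA, a core promoter box, TGACTCA, which is bound by AP-1 proteins and whose other strand reads TGAGTCA, and GGGCGG, which is bound by SP1. None of these letters was in it, so no base is printed in capitals. In the same 250 bases of all 35116 promoter entries, the motifs were present in 10.7%, 4.2% and 42.6%. The absence of a match says only that these letters are not in this window.

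KRT19, the type I keratin of simple and ductal epithelia and the smallest of the family, was lower by a lesser amount. It measured 568, 542 and 559 FPKM with lentivirus-NC and 424, 332 and 378 FPKM with lentivirus-circCSPP1. The groups did not overlap, and lentivirus-circCSPP1 replicate 1 was the nearest to the controls. The log2 difference was -0.56 (standard error 0.096, adjusted p = 0.013) between means of 557 ± 13.2 and 378 ± 46.1 FPKM (SD, n = 3). The call was lost, with adjusted p from 0.057 to 0.071, in the fits without 1 of the controls and in the fit without lentivirus-circCSPP1 replicate 3.

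KRT15, the basal-layer type I keratin, was the only basal member above the filter. It measured 5.42, 4.84 and 4.85 FPKM with lentivirus-NC and 3.62, 2.33 and 2.34 FPKM with lentivirus-circCSPP1. These are low levels, and the groups did not overlap. The means were 5.04 ± 0.332 and 2.76 ± 0.742 FPKM (SD, n = 3), a log2 difference of -0.70 (standard error 0.154, adjusted p = 0.029). The call was lost when any 1 library other than lentivirus-circCSPP1 replicate 1 was left out (adjusted p from 0.065 to 0.12). KRT15 and KRT19 are neighbours on chr17, at chr17:41513743-41522529 and chr17:41523617-41528308 on the minus strand, 1088 bases apart.

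KRT7, the type II keratin of ductal and glandular epithelia, was the most abundant member in every library and was higher with lentivirus-circCSPP1. It measured 1706, 1618 and 1690.35 FPKM in lentivirus-NC and 2753, 1997 and 2181 FPKM in lentivirus-circCSPP1. The groups did not overlap, and replicate 1, whose departure rose with GC content, was the highest of its group. KRT7 had the highest GC content of the members, 62.9%. The means were 1671 ± 47.2 and 2310.4 ± 394 FPKM (SD, n = 3), and the log2 difference was 0.45 (standard error 0.116, adjusted p = 0.046).

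Without lentivirus-circCSPP1 replicate 1 the log2 difference of KRT7 was 0.32 (adjusted p = 0.0079), and after a correction of each library for GC content and transcript length it was 0.47 (adjusted p = 0.0015). Leaving out any 1 control library or lentivirus-circCSPP1 replicate 3 gave adjusted p from 0.11 to 0.17. KRT7 lies at chr12:52232520-52252186 on the plus strand, and its exons share 282 bases, 6.89% of its exonic length, with the antisense gene KRT7-AS.

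KRT80 was also higher with lentivirus-circCSPP1. It measured 80.4, 77.7 and 75.7 FPKM in lentivirus-NC and 126, 115 and 114 FPKM in lentivirus-circCSPP1. The groups were well separated, with a coefficient of variation of 5.56% in lentivirus-circCSPP1, the lowest of the 6 tested members there. The means were 77.9 ± 2.35 and 118 ± 6.58 FPKM (SD, n = 3), with a log2 difference of 0.60 (standard error 0.078, adjusted p = 0.0059). KRT80 passed under all 17 alternative settings. It lies at chr12:52168996-52192000 on the minus strand, 40520 bases from KRT7 on the side away from KRT8, so both members that rose are neighbours among the members on chr12.

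**Figure D2:**
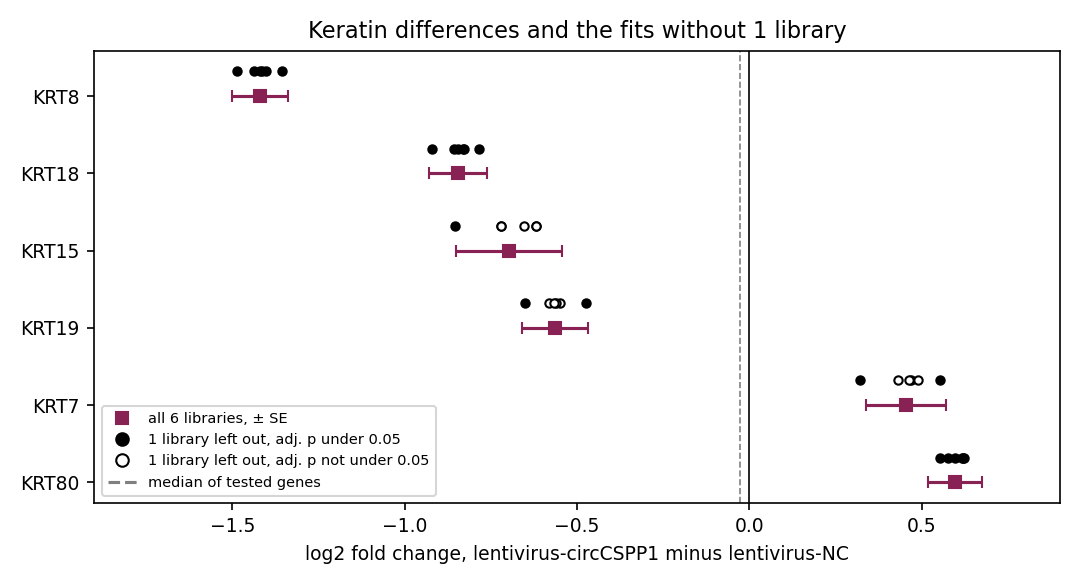
Log2 difference between lentivirus-circCSPP1 and lentivirus-NC for the 6 tested keratins, as squares with the standard error, and above each the same value with 1 library left out (filled where the adjusted p was under 0.05). KRT8, KRT18 and KRT80 stayed filled in all 6 such fits, whereas KRT19, KRT15 and KRT7 have open circles with the same sign.

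The basal pair was near the limit of detection. KRT5 measured 0.63, 0.27 and 0.06 FPKM with lentivirus-NC and 0.85, 0.28 and 0.68 FPKM with lentivirus-circCSPP1. KRT14 was listed at 0 in lentivirus-NC replicate 1 and measured 0.15 and 0.27 FPKM in the other two, with 0.38, 0.23 and 0.08 FPKM in lentivirus-circCSPP1. The groups overlapped for both genes. At the estimated depths and the length of the GENCODE transcript, these values stand for about 6 to 69 fragments of KRT5 and 0 to 20 of KRT14, against 28949 to 101773 of KRT8.

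The stress-associated keratins were as low. KRT6A measured 0.41, 0.27 and 0.14 FPKM with lentivirus-NC and 0.17, 0.07 and 0.36 FPKM with lentivirus-circCSPP1. KRT17 measured 0.56, 0.76 and 0.25 FPKM with lentivirus-NC and 0.34, 2 and 0.44 FPKM with lentivirus-circCSPP1. The groups overlapped, and lentivirus-circCSPP1 replicate 2 alone carried the higher mean of KRT17. When the filter was removed, the adjusted p-values of KRT5, KRT14, KRT6A and KRT17 were 0.58, 0.74, 0.81 and 0.82, which at this depth does not show that the groups were alike. Of the stretches of 100 bases in the KRT6A transcript, 18.2% also occur in transcripts of KRT6B, KRT6C or KRT5, and 5.95% of those of KRT14 occur in KRT16 or its pseudogenes, so the low values of these genes are uncertain. The longest protein-coding transcripts of KRT8, KRT15, KRT19 and KRT80 had 0 such stretches in common with transcripts of other genes.

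In order of mean level, the lentivirus-NC libraries had KRT7, KRT8, KRT18, KRT19, KRT80 and KRT15, followed by the low members. No neighbours in that order overlapped in their values, KRT18 and KRT19 being the closest. With lentivirus-circCSPP1 the order was KRT7, KRT8, KRT19, KRT18, KRT80 and KRT15. There KRT8, KRT19 and KRT18 overlapped in their values across libraries, so their order within the group is not separated from the spread, although within each library KRT8 was above KRT18 and KRT18 was below KRT19.

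The make-up of the keratin RNA differed between groups more than its amount. The 10 members summed to 4095, 3941 and 4103 FPKM in lentivirus-NC and to 4149, 3147 and 3428 FPKM in lentivirus-circCSPP1. These sums overlapped only through lentivirus-circCSPP1 replicate 1, whose departure rose with GC content. Replicates 2 and 3 of that group lay below every control. KRT7 made up 41.0% to 41.7% of the sum in lentivirus-NC and 63.5% to 66.4% in lentivirus-circCSPP1. KRT8 made up 27.2% to 27.7% and 11% to 12.1%. KRT18 made up 15.2% to 15.5% and 9.26% to 10.1%, and KRT19 13.6% to 13.9% and 10.2% to 11%. None of these 4 shares overlapped between groups. Shares of a sum depend on each other, and no test was run on them.

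**Figure D3:**
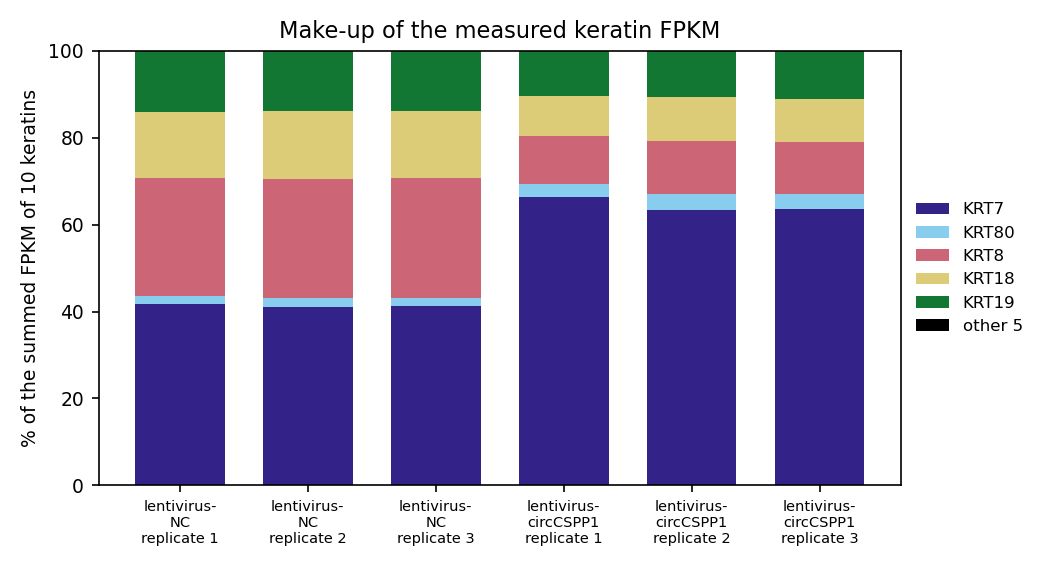
Share of the summed FPKM of the 10 keratins held by each member, as 1 stacked bar per library, with KRT5, KRT6A, KRT14, KRT15 and KRT17 pooled as the other 5 (too small to see). The KRT7 part grows from about 41% in the 3 lentivirus-NC bars to 63.5% to 66.4% in the lentivirus-circCSPP1 bars, and the KRT8 part shrinks.

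The balance within partner pairs was given as a ratio of FPKM values in each library, with no test. The ratio of KRT8 to KRT18 was 1.79, 1.77 and 1.79 in lentivirus-NC and 1.19, 1.19 and 1.22 in lentivirus-circCSPP1. This ratio did not single out lentivirus-circCSPP1 replicate 1, in which both genes were highest in their group. The ratio of KRT7 to KRT19 was 3.00, 2.98 and 3.02 in lentivirus-NC and 6.49, 6.02 and 5.77 in lentivirus-circCSPP1. The ratio of KRT7 to KRT8, both of type II, had the largest fold difference of these 3, with 1.53, 1.49 and 1.49 in the controls and 6.04, 5.26 and 5.29 in lentivirus-circCSPP1.

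Summed by type, the type I members were at 1185 ± 21.8 FPKM in the controls (SD, n = 3) and at 729 ± 79.3 FPKM with lentivirus-circCSPP1 (SD, n = 3), with groups that did not overlap. The type II members, which include the higher KRT7 and the lower KRT8, summed to 2862 ± 69.8 and 2846 ± 439 FPKM (SD, n = 3). These sums overlapped only through lentivirus-circCSPP1 replicate 1, at 3337 FPKM. Replicates 2 and 3 of that group, at 2492 and 2709 FPKM, lay below the lowest control, at 2781 FPKM. The ratio of type II to type I was 2.42, 2.4 and 2.42 in lentivirus-NC and 4.11, 3.81 and 3.77 in lentivirus-circCSPP1. The basal members KRT5, KRT14 and KRT15 together were at 0.00292 to 0.00349 of the luminal members KRT8 and KRT18 in lentivirus-NC and at 0.00407 to 0.00577 in lentivirus-circCSPP1. Both terms of this last ratio were lower with lentivirus-circCSPP1, and KRT15 made up most of the basal term.

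**Figure D4:**
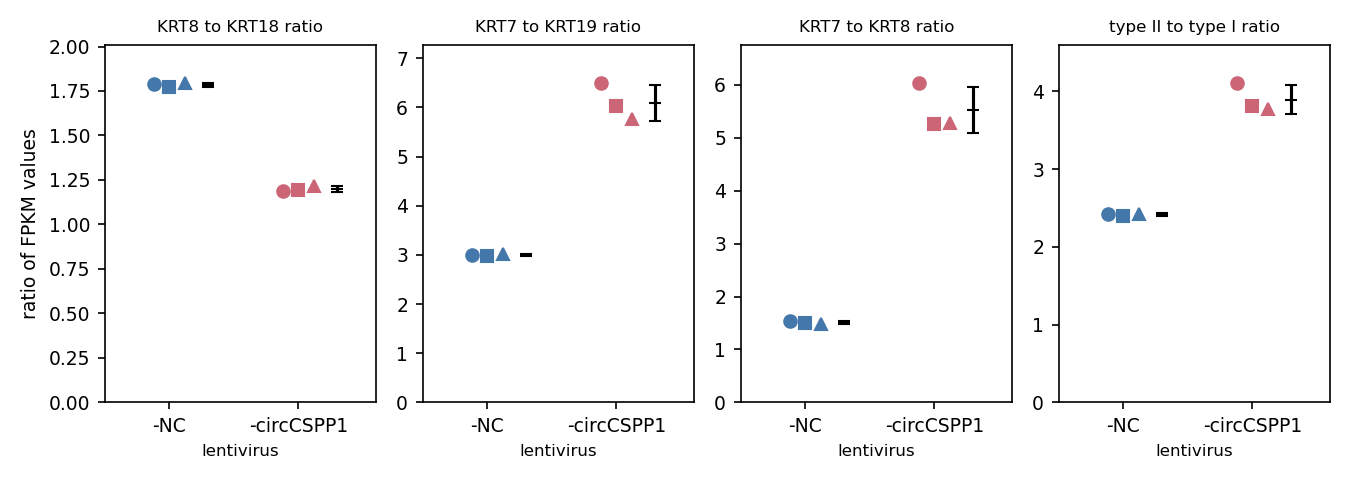
Ratios of FPKM values in each library for KRT8 to KRT18, KRT7 to KRT19, KRT7 to KRT8 and type II to type I sums, on linear axes from 0, with circles, squares and triangles for replicates 1, 2 and 3 and the mean ± SD beside them (n = 3). The lentivirus-NC points lie on top of each other, and in each panel the lentivirus-circCSPP1 points are clear of them.

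Of the other 45 keratins in the table, 42 had a mean under 1 FPKM and 29 were listed at 0 in all 6 libraries, and together they summed to 22.8 to 23.4 FPKM in lentivirus-NC and 24.3 to 32.5 FPKM in lentivirus-circCSPP1. The 3 that were tested, KRT10, KRT81 and KRT86, are named here after their values were seen. None had an adjusted p under 0.05 in limma, and at an unadjusted p under 0.05 there was 1, KRT86. It measured 3.36, 3.81 and 3.2 FPKM with lentivirus-NC and 8.04, 4.34 and 4.65 FPKM with lentivirus-circCSPP1 (adjusted p = 0.13). KRT86 passed as higher in 1 of 16 alternatives, the limma fit after the correction for GC content and length (adjusted p = 0.021). KRT86, a hair keratin gene, overlaps the KRT7 gene on the same strand of chr12, though no exon is shared. KRT10, a keratin of suprabasal epidermis, had a mean of 14.9 FPKM with lentivirus-NC and 17.3 FPKM with lentivirus-circCSPP1 (adjusted p = 0.26). VIM, which encodes the mesenchymal filament protein vimentin and was also named after its values were seen, was nearly as abundant as KRT8 in the controls and had 1118 ± 9.41 and 1091 ± 70.1 FPKM (SD, n = 3, adjusted p = 0.77 from limma). KRT8 per unit of VIM was 0.967 to 1.03 in lentivirus-NC and 0.373 to 0.394 in lentivirus-circCSPP1.

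Among 12 tested genes for other intermediate filaments, 1 was lower and none higher. It was NES, the progenitor-cell filament nestin, at 4.03, 4.86 and 4.28 FPKM with lentivirus-NC and 1.79, 1.87 and 1.41 FPKM with lentivirus-circCSPP1 (log2 difference -1.0, adjusted p = 0.0049). The median difference of these 12 was 0.14, and at an unadjusted p under 0.05 limma gave 2 higher and 2 lower. After the correction for GC content and length 3 were higher and 1 lower at an adjusted p under 0.05. Of all tested genes, 28.6% passed in that fit.

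Genes of the junctions to which keratin filaments are anchored were mostly below the threshold. Of 19 tested desmosome, hemidesmosome and plakin genes, 2 were lower and none higher, with a median log2 difference of -0.25. At an unadjusted p under 0.05 limma gave 7 lower and 0 higher. The adjusted count rose to 7 lower and 1 higher after the correction for GC content and length, where 28.6% of all tested genes passed. It rose to 6 lower without lentivirus-circCSPP1 replicate 1, where 28.5% of all tested genes passed. PKP1, a desmosomal plaque protein that binds keratin, had means of 3.04 and 1.62 FPKM (log2 difference -0.63, adjusted p = 0.013). ITGB4, the integrin subunit that ties keratins to the basement membrane at hemidesmosomes, measured 48.0, 45.0 and 41.5 FPKM with lentivirus-NC and 32.0, 18.7 and 20.2 FPKM with lentivirus-circCSPP1 (log2 difference -0.93, adjusted p = 0.024). Both calls were lost without any 1 of the controls or without lentivirus-circCSPP1 replicate 3 (adjusted p up to 0.071 for PKP1 and 0.10 for ITGB4).

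Of 7 tested basal markers, 2 were lower and none higher, with 2 lower and 1 higher at an unadjusted p under 0.05 in limma. ITGB4 is 1 of them, and the other is CDH3, the P-cadherin of basal cells, which measured 111, 105 and 108 FPKM with lentivirus-NC and 40.5, 30.6 and 33.4 FPKM with lentivirus-circCSPP1. The log2 difference of CDH3 was -1.61 (standard error 0.113, adjusted p = 0.0011), and passed in all 17 alternatives. The higher basal marker was S100A2, at 9, 12.4 and 11.4 FPKM with lentivirus-NC and 18.8, 15.3 and 14.9 FPKM with lentivirus-circCSPP1 (adjusted p = 0.058 in limma). After the correction for GC content and length 2 basal markers were lower and 1, S100A2, was higher at an adjusted p under 0.05. Of all tested genes, 28.6% passed in that fit. Of 5 tested luminal markers beyond the keratins, 0 passed an adjusted p of 0.05 in limma and 0 an unadjusted p of 0.05. With no filter on low values 2 passed, both lower, DPP4 (0.8, 0.95 and 0.97 FPKM in the controls and 0.31, 0.27 and 0.24 FPKM with lentivirus-circCSPP1, adjusted p = 0.01) and KLK4, which did not exceed 0.19 FPKM.

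Of 7 tested genes of epithelial identity, 3 were lower and none higher, with 5 lower and 0 higher at an unadjusted p under 0.05 in limma. CDH1, which encodes E-cadherin, measured 11.5, 11.4 and 9.81 FPKM with lentivirus-NC and 3.18, 2.44 and 3.41 FPKM with lentivirus-circCSPP1, a log2 difference of -1.58 (adjusted p = 0.0016). EPCAM, an epithelial adhesion molecule, had means of 20.4 and 12.6 FPKM (log2 difference -0.67, adjusted p = 0.017), and ELF3, an epithelial transcription factor, 51.1 and 29.4 FPKM (log2 difference -0.78, adjusted p = 0.01). The CDH1 call held in every fit without 1 library. The EPCAM call was lost in 4 of these 6 fits, without any 1 lentivirus-NC library or lentivirus-circCSPP1 replicate 3 (adjusted p up to 0.084), and the ELF3 call in 2, without lentivirus-NC replicate 1 or 2 (up to 0.062). The count of the list was 5 lower after the GC and length correction and 5 lower without lentivirus-circCSPP1 replicate 1. In these fits 28.6% and 28.5% of all tested genes passed. With no filter on low values 3 were lower and 1 higher. The higher gene was ESRP1, at 0.43, 0.52 and 0.37 FPKM with lentivirus-NC and 0.71, 0.79 and 0.77 FPKM with lentivirus-circCSPP1.

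Of 6 tested cornification and stress genes, 2 were lower and none higher, at an adjusted as at an unadjusted p under 0.05 in limma. FLG, whose product bundles keratin filaments in the epidermis, had means of 6.14 and 3.34 FPKM (log2 difference -0.73, adjusted p = 0.018), a call lost without any 1 lentivirus-NC library or lentivirus-circCSPP1 replicate 3 (adjusted p up to 0.088). S100A9, a calcium-binding alarmin, had 9.16 and 4.09 FPKM (-0.99, adjusted p = 0.0068) and held in each fit without 1 library. Of 5 tested markers of other cell types, COL1A1 was lower, with means of 3.26 and 1.15 FPKM (-0.97, adjusted p = 0.01), lost at 0.0504 without lentivirus-NC replicate 1. That list of 14 summed to 53.3 to 60.2 FPKM in lentivirus-NC and 41.3 to 57.4 FPKM in lentivirus-circCSPP1, and its part in the keratin values was not tested.

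**Figure D5:**
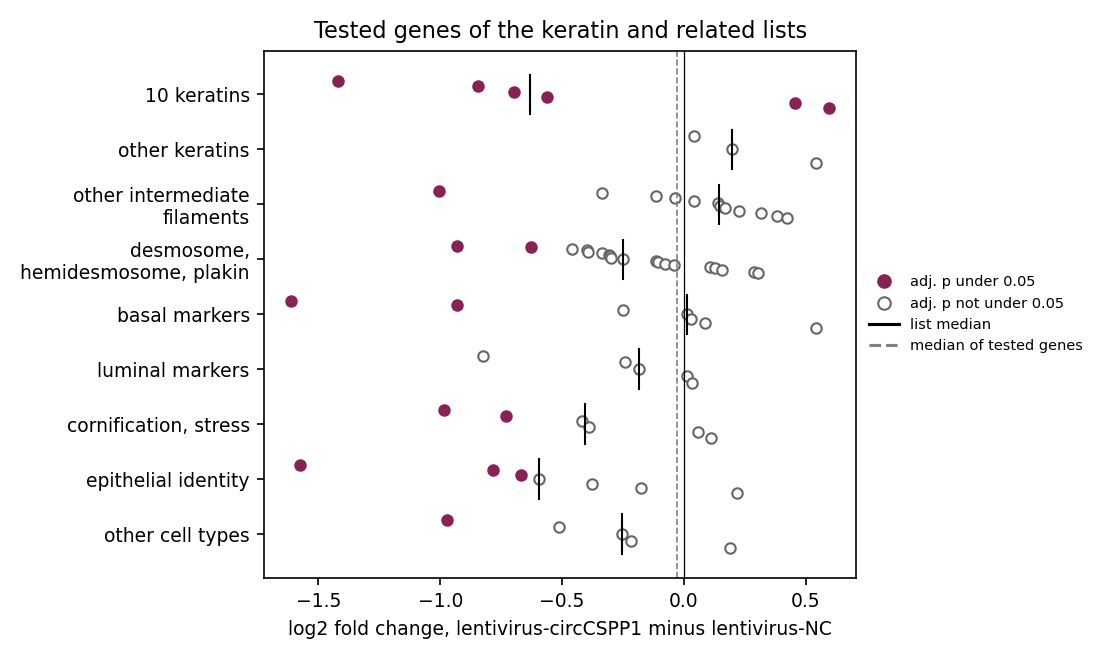
Log2 difference between lentivirus-circCSPP1 and lentivirus-NC for each tested gene of the keratins and of the related lists, filled where the adjusted p was under 0.05, with a black line at the median of each list and a dashed line at the median of all tested genes (-0.03). The filled points of the lists other than the 10 keratins are all below 0, and the 2 filled points above 0 are KRT7 and KRT80.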

How the data were processed

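RNA-seq of DU145 was analysed in 6 libraries, 3 lentivirus-NC and 3 lentivirus-circCSPP1, grouped by their labels. The authors selected polyadenylated RNA for paired-end sequencing and deposited 1 table of FPKM values, rounded to 2 decimals. The submitters' processing notes name hg38. The aligner, the counting program and the annotation are not given in the sources used here. No count model was fitted. Depth was estimated from genes with a single transcript under 800 nt, in which, of 53 to 70 values a library, 93.2% to 98.3% came within 0.15 of a whole fragment (30% by chance).

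Values were taken to log2(FPKM + 1), and limma 3.58.1 (R 4.3.3) was fitted with lmFit, then eBayes with a mean trend, without covariates, to the 12322 genes whose mean reached 1 FPKM, with two-sided tests, Benjamini-Hochberg adjustment over all tested genes and a threshold of 0.05. The fit was tested on simulated data of this comparison, in which 100% of the 100 genes changed by a log2 difference of 1 and 0.107% of the 12101 others were called among 12301 genes. The simulated libraries had the same dispersion for every gene and no departure with GC content. No changed gene had a log2 difference under 1. These rates therefore do not cover smaller differences or the GC-linked departures of the real libraries. Lengths, GC content and coordinates came from GENCODE release 29, which matched all 10 members and may not be the authors' annotation. Figures were drawn with matplotlib 3.10.9.

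The members and gene lists were chosen with earlier results of these data known, and the lists were written from general knowledge. The text names all 10 members, the genes of each other list with an adjusted p under 0.05 and defining markers under 1 FPKM, of which 1 is not reported here. The alternatives were pseudocounts of 0.1 or 0.01, a minimum mean of 5 FPKM or none at all, conversion to TPM, scaling by median ratios, quantile normalization of the log2 values, unmoderated variances, a robust variance prior, a block for the replicate number, a loess correction for GC content and length (span 0.3), and the fit without each library in turn. The number of sample columns left unused was 0.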

Additional observations from a re-analysis of the deposited data

How the results depend on the processing

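KRT8, KRT18 and KRT80 passed under all 17 alternatives, KRT19 under 12 of 17, KRT7 under 9 of 17 and KRT15 under 8 of 16. None of the 6 tested members changed direction. The other 4 were fitted only with no filter, and KRT17 also as TPM. Without moderation of the variance 3 members and 834 genes passed, against 6 and 1399, and leaving out 1 library gave 3 to 6 members and 293 to 3514 genes. The loess correction for GC content and length gave 3520 genes, 1813 higher and 1707 lower, against 578 and 821, with all 6 members passing. With the replicate block 923 genes and 6 members passed. Same-numbered libraries did not deviate together (r from 0.0065 to 0.073), so the numbers were taken as names only, and not every library correlated best with its own number. The cause of these differences was not tested. KRT7 was also lost with no filter (adjusted p = 0.17 in limma), a mean of at least 5 FPKM (0.051), median-ratio scaling (0.058) and no moderation (0.15). KRT15 was lost with no filter (0.08), quantile normalization (0.069) and no moderation (0.093), and KRT19 with no moderation (0.062).

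Among the genes that did not pass, the log2 difference of KRT81 ranged from -0.088 to 0.14 in the fits without 1 library, turning negative without lentivirus-NC replicate 3 or lentivirus-circCSPP1 replicate 1. That of VIM ranged from -0.081 to 0.012 there, turning positive without lentivirus-circCSPP1 replicate 2, and was 0.0058 with median-ratio scaling. Over all 17 alternatives the lowest value of VIM was -0.17, and its smallest adjusted p in these limma fits was 0.072. Depth limits KRT5, KRT14, KRT6A and KRT17, with an estimated 0 to 115 fragments per library.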
